A study of Mus musculus with 2 samples.

Results

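Mtss1, on the minus strand of mouse chromosome 15, encodes metastasis suppressor 1 (also called MIM), a protein that binds and bends the plasma membrane and interacts with actin. The locus is taken here as the window from 58.74 to 58.95 Mb of the mm9 build, 210 kb long. It holds 40 of the 38228 peaks of 5-hydroxymethylcytosine (5hmC) in the 4 deposited lists, counted by the position of the summit. These are 17 of 18160 peaks called in the Tet2+/+ library alone and 14 of 16875 called in the Tet2-/- library alone, here "own" peaks. A further 8 of 2724 regions were called higher in Tet2+/+ than in Tet2-/- ("lowered" without TET2), and 1 of 469 was called higher in Tet2-/- ("raised"). The locus was chosen by its number of lowered regions, so that number and the other values of the same contrast are a description and carry no test.

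The cells were bone marrow-derived mast cells of C57BL/6 mice aged 6 to 12 weeks, grown with interleukin-3 and sorted after 4 weeks for surface Kit and FcεRIα. Per the labels, knockout cultures differentiated less well, and the sort was made for that reason. The 2 groups were Tet2+/+ and Tet2-/-, untreated, with cells from 2 animals per genotype. Each genotype has 1 library, and the labels do not say whether the DNA of the animals was pooled. There is therefore no spread between replicates, no p-value for any difference, and every interval below covers counting error only. The lists hold positions and no gene expression, so neither the sorted cell type nor the loss of Tet2 could be checked from them.

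TET enzymes oxidise 5-methylcytosine to 5hmC, an intermediate of DNA demethylation that is also a lasting mark over the bodies of many active genes and at enhancers. TET2 is the family member most often mutated in blood disorders. TET1 and TET3 can make the same base, so 5hmC can be present without TET2.

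The window covers the gene and its flanks. The span used for Mtss1 is about 58.77 to 58.91 Mb, so transcription starts near the upper end and runs towards lower positions. No mm9 annotation was used, so no peak is assigned to an exon, intron or promoter, and no mm9 sequence was used. In the gene order of RefSeq GRCm38.p6, the nearest gene below Mtss1 is Ndufb9, a subunit of respiratory complex I. The long non-coding RNA gene Gm41330 lies inside Mtss1, and the pseudogene Rpl7-ps8 is the next gene above it. Which of these genes the mm9 window holds was not determined.

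Coverage was read back from the deposited peak statistics as whole fragments over each summit. The Tet2-/- library was 1.18 times as deep as the Tet2+/+ library by its genome background, so Tet2-/- fragments were multiplied by 0.848 wherever they are called depth-scaled. Over the genome, depth-scaled coverage at 8462 pairs of own peaks was a median of 1.14 times as high in Tet2+/+, and this general difference was not removed unless stated. Peaks were not masked for repeated sequence, and the part of repeats in any peak was not tested.

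Joining peaks that overlapped by at least 1 bp gave 24 sites, numbered here from the lowest position upwards. Of these, 9 held an own peak in both libraries, 8 in Tet2+/+ only and 5 in Tet2-/- only, and 2 held a lowered region with no own peak. Along the chromosome, the order was Tet2+/+ only (site 1), Tet2+/+ only and lowered (2), Tet2+/+ only (3), both (4), Tet2-/- only (5) and lowered without an own peak (6). It went on with both and lowered (7), Tet2-/- only (8), both and lowered (9), Tet2-/- only and raised (10), Tet2+/+ only (11), Tet2-/- only (12), and both (13 and 14). The upper part had lowered without an own peak (15), both and lowered (16), Tet2+/+ only and lowered (17), Tet2-/- only (18), both and lowered (19), and Tet2+/+ only (20). The last were both (21 and 22) and Tet2+/+ only (23 and 24). All 8 lowered regions and the raised region lay inside the span of Mtss1, as did 13 of the 17 Tet2+/+ and 13 of the 14 Tet2-/- own peaks.

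**Figure D1:**
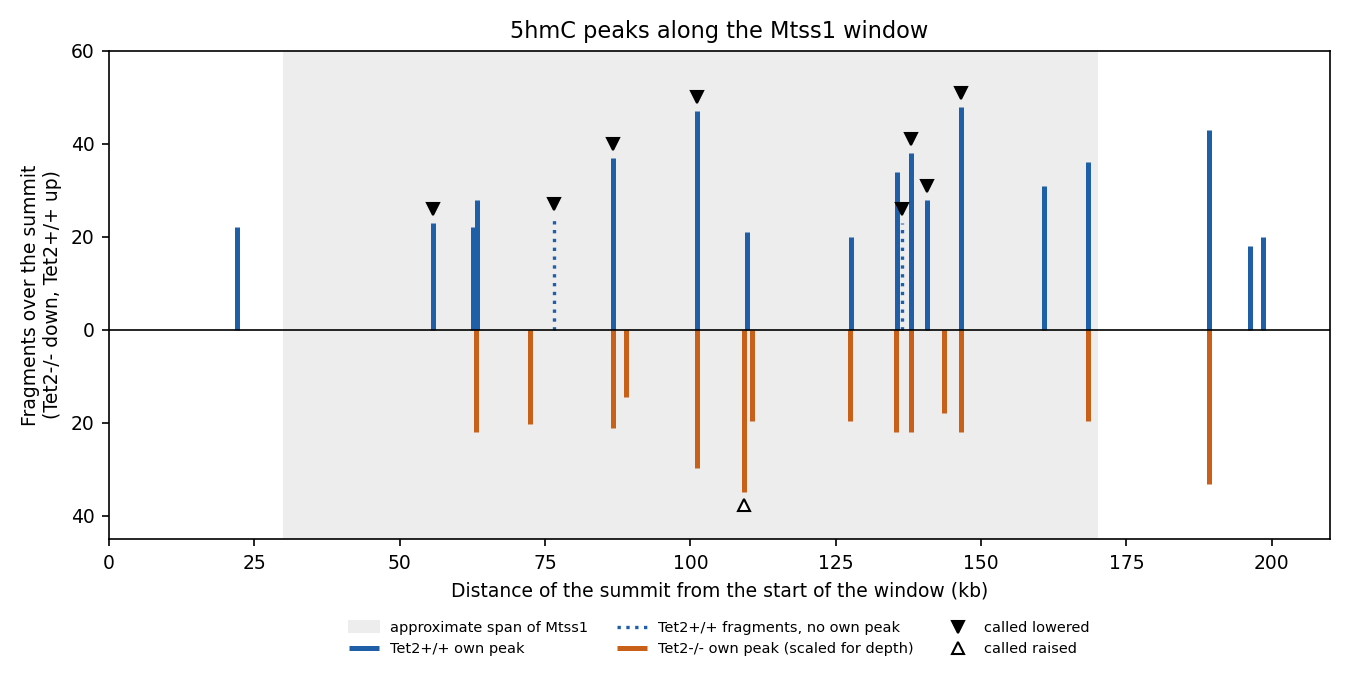
Fragments over the summit of each peak (vertical axis, number) against the distance of the summit from the start of the window (horizontal axis, kb), with Tet2+/+ upwards and depth-scaled Tet2-/- downwards. Filled triangles mark the 8 lowered regions and the open triangle the 1 raised region; all 9 lie in the grey span of Mtss1, and 4 of the lowered regions stand within 10.2 kb of each other in its upper part.

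The lowered regions ran from 58.7957 to 58.8866 Mb, and those in the upper part of the gene stood close together. Sites 15, 16, 17 and 19 followed each other at distances of 1.52, 2.75 and 5.89 kb. The lower ones were farther apart, with 20.8 kb between sites 2 and 6, 10.3 kb between sites 6 and 7, 14.4 kb between sites 7 and 9, and 35.3 kb between sites 9 and 15. The median distance to the nearest other lowered region was 8.09 kb in the window and 85.7 kb over the genome. Among own Tet2+/+ peaks of the window, 6 of 17 overlapped a lowered region, where 13.8% of all own Tet2+/+ peaks did. Among own Tet2-/- peaks, 4 of 14 overlapped a lowered region, with 5.95% over the genome. Nothing is read from these shares, since the locus was picked on this contrast.

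Site 19, on chromosome 15 at 58886389 to 58886839, had the highest Tet2+/+ coverage of the window. Its summit was covered by 48 Tet2+/+ fragments (95% Poisson interval 35.4 to 63.6) and by 26 Tet2-/- fragments, or 22.0 depth-scaled. Coverage was 2.18 times as high in Tet2+/+ (95% exact interval 1.32 to 3.66), higher than at 97.4% of all paired peaks. The direct call gave it a deposited fold of 3.81 and a −log10 q of 9.80, the highest of the 8 and number 157 of the 2724 lowered regions by q.

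Site 9, at 58840945 to 58841454, was the second strongest in Tet2+/+ and had the strongest Tet2-/- peak among the lowered sites. It had 47 Tet2+/+ and 35 Tet2-/- fragments, 29.7 depth-scaled. The ratio was 1.58 (1.00 to 2.53), and its deposited fold was 2.67 with a −log10 q of 4.89.

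Sites 7 and 16 resembled each other in the coverage of each library. Site 7, at 58826416 to 58826940, had 37 Tet2+/+ and 25 Tet2-/- fragments (21.2 depth-scaled), a ratio of 1.75 (1.02 to 3.02). Site 16, at 58877504 to 58878114, had 38 and 26 fragments (22.0 depth-scaled), a ratio of 1.72 (1.02 to 2.96). Their deposited folds were 2.34 and 3.03, with −log10 q of 2.44 and 5.01. At these 4 sites the Tet2-/- library thus still had a called peak, and Tet2+/+ coverage was 1.58 to 2.18 times as high.

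The other 4 lowered regions had no Tet2-/- own peak, so 4 of 8 overlapped one, against 36.9% of all lowered regions. Here the only Tet2-/- value is the pileup that the peak caller expected from that library, which is not its coverage at the summit (at site 9 it was 17.0, where the depth-scaled coverage was 29.7). At site 2, at 58795406 to 58795949, 23 Tet2+/+ fragments (14.6 to 34.5) stood over an expected 4.24. At site 17, at 58880497 to 58880869, 28 fragments (18.6 to 40.5) stood over 5.09. Among the 8 lowered regions, these 2 had the highest deposited folds, 4.58 and 4.76, with −log10 q of 5.89 and 7.62.

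Sites 6 and 15 were called lowered although no own peak of either library overlapped them. Site 6, at 58816378 to 58816797, had 24 Tet2+/+ fragments over an expected 5.26, a fold of 4.00. Site 15, at 58876269 to 58876468, had 23 over 6.78, a fold of 3.08 with a −log10 q of 2.79. So 6 of the 8 lowered regions overlapped a Tet2+/+ own peak, where 92.4% of all lowered regions did. At the 6 that did, the own and the direct list gave the same number of Tet2+/+ fragments.

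Lowered regions of the locus had more fragments and smaller folds than lowered regions at large. Their median was 32.5 Tet2+/+ fragments and a fold of 3.45, against 21 fragments and a fold of 4.04 in the whole list. The expected pileup from Tet2-/- had a median of 9.33 in the window and 4.24 in the list. None of the 8 reached a fold of 5.

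The raised region was at site 10, on chromosome 15 at 58848994 to 58849356, near the middle of the gene. It had 41 Tet2-/- fragments (29.4 to 55.6), or 34.8 depth-scaled, over an expected 9.20 from Tet2+/+. The fold was 3.51 and the −log10 q 5.00. By fragments it was the strongest Tet2-/- own peak of the window, with a lower own fold than site 22 (5.16 against 9.22), and it had no Tet2+/+ own peak. It was also the only own Tet2-/- peak of 14 called raised, with 2.77% over the genome. A Tet2+/+ own peak of 21 fragments, site 11, had its summit 0.588 kb above, and a Tet2-/- own peak of 23 fragments, site 12, followed 0.798 kb farther on. The 3 peaks did not overlap, so within 1.39 kb the called peaks alternated between the libraries. Sites 11 and 12 were weak calls, with own folds of 3.24 and 3.20, at percentiles 0.419 and 0.409 of their lists. Coverage of the other library at the 3 summits is not in the lists, so an alternating level of 5hmC was not tested.

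Of the 9 sites with an own peak in both libraries, the 5 that were not called had a median coverage ratio of 1.30, against 1.73 at the 4 lowered sites. Site 21, at 58908203 to 58908554, near the upper end of the gene where transcription starts, had 36 Tet2+/+ and 23 Tet2-/- fragments (19.5 depth-scaled). Its ratio of 1.85 (1.06 to 3.26) was higher than at 3 of the 4 lowered sites with a shared peak, yet it was not called. Site 14, at 58875262 to 58875637, had 34 and 26 fragments (22.0 depth-scaled), a ratio of 1.54 (0.898 to 2.68).

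Site 22, at 58928899 to 58929461, lay above the gene and had the highest own fold of the window in both libraries, 10.0 in Tet2+/+ and 9.22 in Tet2-/-. Coverage there was 43 and 39 fragments (33.1 depth-scaled), a ratio of 1.30 (0.823 to 2.06). Site 4, at 58802954 to 58803392, had 28 and 26 fragments (22.0 depth-scaled), a ratio of 1.27 (0.718 to 2.25). Site 13, at 58867277 to 58867770, had 20 and 23 (19.5 depth-scaled), a ratio of 1.03 (0.534 to 1.95). At sites 4, 13, 14 and 22 a difference was not detectable at this depth, since each interval includes 1. The intervals at sites 7, 9, 16 and 21 lie above 1 but include the general genome ratio of 1.14. Only at site 19 does the interval lie above that ratio.

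Depth-scaled coverage was thus higher in Tet2+/+ at 9 of 9 shared sites, where it was so at 66.0% of all paired peaks. Their summits in the 2 libraries lay 14 to 78 bp apart. Summed over the 9 sites there were 331 Tet2+/+ and 249 Tet2-/- fragments, a ratio of 1.57 (95% exact interval 1.33 to 1.86). Over all pairs of the genome the summed ratio was 1.13 (1.12 to 1.14). It was 1.79 (1.40 to 2.29) over the 4 lowered sites, which the direct call had selected, and 1.39 (1.10 to 1.75) over the 5 others. Neighbouring sites and amplified fragments are not independent, and the choice of the locus favours such ratios.

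**Figure D2:**
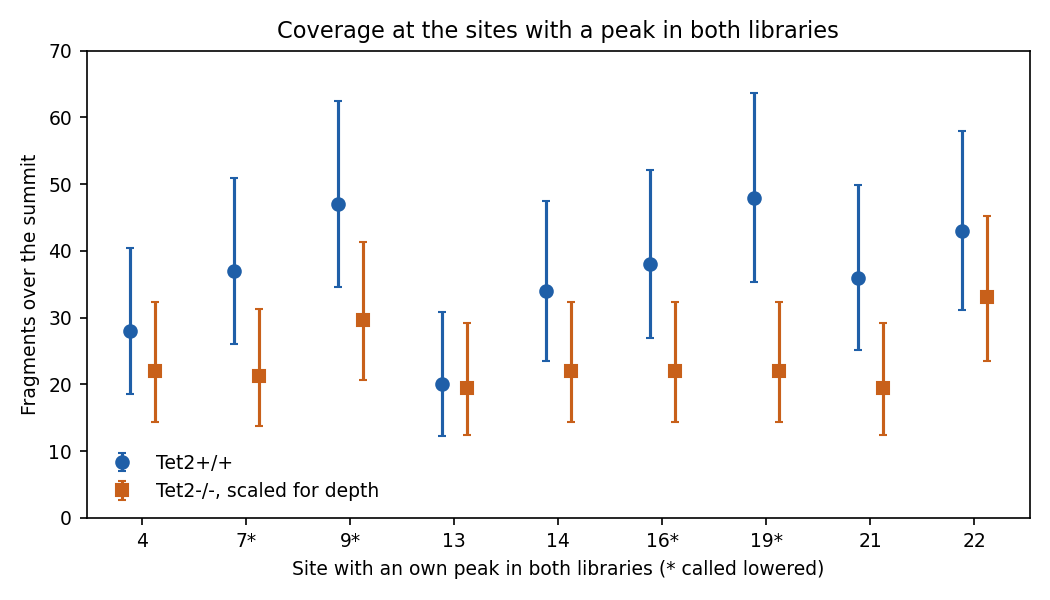
Fragments over the summit (vertical axis, number) at the 9 sites with an own peak in both libraries (horizontal axis, site numbers in order along the chromosome; asterisks mark the 4 lowered sites), with 95% Poisson intervals as bars. Tet2+/+ points lie above depth-scaled Tet2-/- points at each site, farthest at site 19 (48 against 22.0), and the bars of the 2 libraries do not overlap at site 19 only.

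The number of own peaks with a partner in the other library was 9 in both directions. Of the own Tet2+/+ peaks, 9 of 17 had a Tet2-/- partner (52.9%, 95% exact interval 27.8 to 77.0), against 61.2% over the genome. Of the own Tet2-/- peaks, 9 of 14 had a Tet2+/+ partner (64.3%, 35.1 to 87.2), against 65.8%. These intervals treat neighbouring peaks of a library as independent, so nothing is read from how the shares stand to the genome shares. The 8 peaks found in Tet2+/+ only had 18 to 31 fragments (median 22), and the 9 shared ones 20 to 48 (median 37). The 5 found in Tet2-/- only had 17 to 41 fragments (median 23), and the shared ones 23 to 39 (median 26).

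Among the single-library peaks that were not called, site 20 at 58900751 to 58901092 was the strongest, with 31 Tet2+/+ fragments and an own fold of 4.36. The other 5 in Tet2+/+ were sites 1 and 3 with 22 fragments each, site 11 with 21, site 24 with 20 and site 23 with 18. Sites 23 and 24 lay above the gene, and site 1 below it. In Tet2-/-, site 5 had 24 fragments, site 12 had 23, site 18 had 21 and site 8 had 17, and all 4 lay inside the span of Mtss1. Sites 5, 8 and 18 stood 3.99, 2.15 and 2.89 kb from the nearest lowered site. Coverage of the other library at these single-library sites is not in the lists and was not analysed here.

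The surroundings of the peaks held many fragments as well, and what part of these was background was not tested. The own lists set each summit against the mean coverage of the 10 kb around it, from which the fragments in those 10 kb were recovered. These 10 kb include the peak itself and any neighbouring peaks, called lowered or raised or not. In Tet2+/+ they numbered 163 to 361 around the 17 own peaks, with a median of 300, against a median of 107 around all Tet2+/+ own peaks. In Tet2-/- they numbered 167 to 357 around the 14 own peaks, before scaling, with a median of 225 against 115. The median own peak of the window stood at percentile 98.9 of its list in Tet2+/+ and 96.1 in Tet2-/-. Inside the span of Mtss1 the Tet2+/+ median was 308 (165 to 361, 13 peaks), and outside it was 170.5 (163 to 177, 4 peaks), so only site 2 of the gene, with 165, was as low as the flanks.

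Around the shared sites these 10 kb levels, peaks included, were also higher in Tet2+/+, by an amount that varied along the gene. They were higher at 9 of 9 sites after scaling, with 76.2% over the 7249 genome pairs whose surroundings were above background in both libraries. The median ratio was 1.48, against 1.14 over those pairs. The largest was at site 16, with 361 Tet2+/+ and 220 Tet2-/- fragments (187 depth-scaled), a ratio of 1.94 (1.63 to 2.30). Next came site 14, 2.43 kb away, with 328 and 216 and a ratio of 1.79 (1.50 to 2.14). The windows of these 2 sites share most of their fragments. The 10 kb around sites 7, 9, 14, 16 and 19 hold lowered regions, so their ratios partly count again the contrast that picked the locus. Those around sites 4, 13, 21 and 22 hold none, but the choice of the locus may favour their ratios as well.

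Site 13, whose summits hardly differed, had a 10 kb ratio of 1.65 (1.37 to 1.99), from 283 and 202 fragments. Site 4 likewise had 1.61 (1.35 to 1.92), from 303 and 222. The 10 kb ratio was 1.48 (1.24 to 1.75) at site 19 and 1.45 (1.21 to 1.74) at site 7. It was lower at site 9, with 312 and 305 fragments and a ratio of 1.21 (1.03 to 1.42), and at site 21, with 339 and 321 and a ratio of 1.25 (1.07 to 1.46). At site 22, above the gene, 169 and 167 fragments gave 1.19 (0.958 to 1.49), an interval that includes 1.

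Around the raised region, with the raised peak itself counted in, the 2 libraries were close. The 10 kb around site 10 held 357 Tet2-/- fragments, or 303 depth-scaled, and those around site 11, 0.588 kb away, held 289 Tet2+/+ fragments. The ratio of Tet2+/+ to depth-scaled Tet2-/- was 0.955 (0.815 to 1.12). For site 11 against site 12, with 325 Tet2-/- fragments, it was 1.05 (0.892 to 1.23).

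The own folds, which set the summit against its surroundings, leaned less to Tet2+/+ than the coverage did. Their ratio, Tet2+/+ over Tet2-/-, was below the depth-scaled coverage ratio at 9 of the 9 shared sites. This follows closely from the 10 kb levels above, by which the own fold divides, and is no separate result. The own fold was higher in Tet2+/+ at 5 of the 9, and over the genome at 50.6% of pairs. The order of the sites was alike at its ends: sites 19 and 21 had the highest ratio of both kinds, with own folds of 6.84 and 4.56 at site 19 and 4.76 and 3.23 at site 21. Sites 4 and 13 had the lowest of both kinds, with own folds of 4.11 and 4.96 at site 4 and 3.15 and 4.76 at site 13. The sides differed at sites 4, 13, 14 and 16, where coverage was higher in Tet2+/+ and the own fold in Tet2-/-. At site 16 the own folds were 4.74 and 5.00, and at site 14 they were 4.63 and 5.08.

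**Figure D3:**
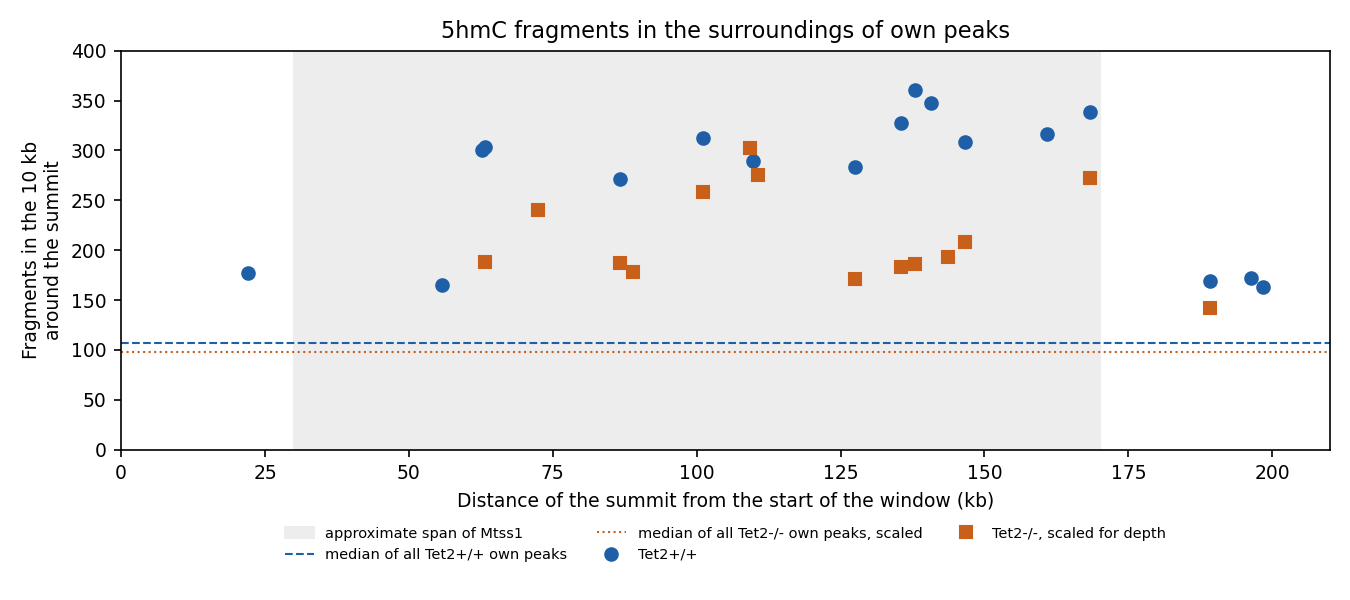
Fragments in the 10 kb around each own summit (vertical axis, number) against the distance of the summit from the start of the window (horizontal axis, kb), for Tet2+/+ and depth-scaled Tet2-/-, with the medians of all own peaks of each library as lines (107 for Tet2+/+). Tet2+/+ points in the grey span of Mtss1 reach 361, and depth-scaled Tet2-/- points come level with them near the raised region (303 at site 10 against 289 at site 11).

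Among tiles of 210 kb laid over the genome in phase with the locus, 3 had more lowered regions than its 8, so at this width it was the fourth and not the first. It was the first, with 7 regions, among windows of 100 kb. Of the 5952 tiles with any peak, 1865 had a lowered region and 176 had both a lowered and a raised one. Own peaks were dense too: 7 other tiles had at least as many Tet2+/+ own peaks as its 17, and 19 had at least as many Tet2-/- own peaks as its 14, where the median tile had 2 of each.

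The highest counts of lowered regions in other tiles were 9, in 3 tiles, and 7, in 2 tiles, and none of these 5 had a region called raised. On chromosome 17 from 7.29 to 7.50 Mb there were 9 lowered regions, 13 Tet2+/+ and 8 Tet2-/- own peaks, and the summed ratio at 7 shared pairs was 2.31 (1.85 to 2.89). Of its lowered regions, 6 overlapped a Tet2-/- own peak, against 4 in the Mtss1 window. On chromosome 5 from 75.96 to 76.17 Mb there were 9, 12 and 7, and the summed ratio at 2 pairs was 1.12 (0.756 to 1.65). There, 1 lowered region overlapped a Tet2-/- own peak. On chromosome 1 from 170.04 to 170.25 Mb there were 9, 8 and 2, again with 1 such overlap, and its 1 pair had a ratio of 2.19 (1.10 to 4.54). On chromosome 4 from 59.16 to 59.37 Mb there were 7, 15 and 14, with 3 such overlaps, and the summed ratio at 7 pairs was 1.21 (0.984 to 1.49), against 1.57 (1.33 to 1.86) in the Mtss1 window. The other tile with 7, on chromosome 16 from 92.76 to 92.97 Mb, had 14 Tet2+/+ and 15 Tet2-/- own peaks. Median fragments in the 10 kb around own peaks, before scaling, were 514.5 in Tet2+/+ and 371 in Tet2-/- in the chromosome 5 tile. That was above the 300 and 225 of the Mtss1 window, and the tiles on chromosomes 17, 1 and 4 were below it in both libraries. The tiles were picked by the same count, and with 1 library per genotype these differences were not tested.

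**Figure D4:**
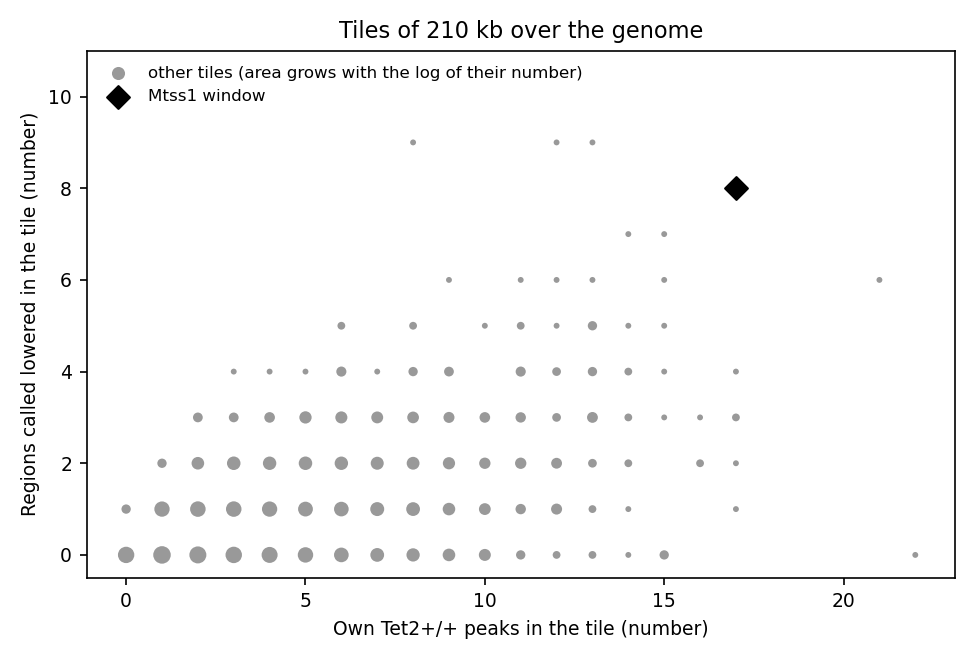
Number of regions called lowered (vertical axis) against number of own Tet2+/+ peaks (horizontal axis) in tiles of 210 kb; the area of a grey point grows with the log of the number of tiles at that position. The Mtss1 window (diamond) has 17 own peaks and 8 lowered regions, below 3 tiles with 9.

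No direct call stood close to the edges of the window. The nearest lowered region outside lay 226 kb below its start and 110 kb above its end, with 16 Tet2+/+ fragments each. The nearest raised regions were 819 and 328 kb away. Own peaks were closer on the upper side: site 24 was the last inside, and a shared peak of 25 Tet2+/+ and 29 Tet2-/- fragments lay 1.84 kb beyond the end. Below the start the next own peaks were 84.0 kb away, with 19 Tet2+/+ and 15 Tet2-/- fragments.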

How the data were processed

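Biotin-enriched 5hmC fragments of 1 library per genotype were sequenced by the authors. Bowtie2, MACS2 and mm9 are named per the submitters' processing notes; the sources used here give no versions, options or thresholds. The authors deposited 2 narrowPeak lists per library, its own peaks and its peaks over the other library, per the peak names. Each deposited peak has a score, a fold (a ratio at the summit) and p and q on the −log10 scale. These are the authors' values and serve here to describe or filter peaks within a list.

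Fragments were recovered from fold, taken as pileup plus 1 over expectation plus 1, and the Poisson −log10 p. In each list, 100% of peaks had a whole number that matched their −log10 p to 0.001. The lowest expectation, 1.46 in Tet2+/+ and 1.72 in Tet2-/-, was taken as the background and gave the depth ratio, since read totals are unknown. Expectations of own peaks above it were whole fragments per 10 kb (within 0.1) for 100% of peaks, at 200 bp per fragment. In simulated peaks, 100% of 984 own and 972 scaled fragment counts came back, by the same formulas.

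Peaks overlapping by at least 1 bp were joined, own peaks with summits within 100 bp were paired one to one, and ratios have exact conditional binomial intervals at 95% (shares: Clopper-Pearson; fragments: Poisson). Amplified fragments are not independent molecules. Positions are 1-based. Python 3.11.15, numpy 2.4.6, pandas 2.3.3, scipy 1.17.1 and matplotlib 3.10.9 were used. Every peak in the window was a member; sites with a direct call are described singly, and as similar regions the 4 other tiles with the most lowered regions are described, ties going to the tile with more own Tet2+/+ peaks, and the tile tied with the last is named. Members and rules were chosen with earlier results of these data known. Stricter limits, overlap rules, scalings and tiles were tried as alternatives.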

Additional observations from a re-analysis of the deposited data

How the results depend on the processing

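Of the values recomputed for the window under other settings, 23 stayed within 1.5 times (counts) or within the counting interval, and 10 moved farther. At −log10 q of at least 5, 4 lowered regions were left, and at a deposited fold of at least 5 there were 0, with 6 own Tet2+/+ and 5 own Tet2-/- peaks; fewer peaks follow from the limits. With reciprocal overlap of at least 50%, 2 lowered regions overlapped a Tet2-/- own peak in place of 4, as a stricter rule must give fewer or as many. The summed coverage ratio was 1.30 from the single pair with summits within 20 bp, in place of 1.57 from 9. The median 10 kb ratio, 1.48, was 1.25 without scaling and 1.30 with the general difference removed, both chosen after seeing the data. By lowered regions the window was number 4, and number 1 among windows of 100 kb. Tiles shifted by 0.5 of their length split the locus. A shifted tile with part of it had 4 lowered regions and was number 24, a place shared with other tiles. At single shared sites the ratio ran from 1.03 to 2.18, from 0.870 to 1.85 without scaling and from 0.901 to 1.91 with the general difference removed. These 18 values stayed within their intervals, and no called site changed direction. Site 13, which was not called, did change direction, to 0.870 and 0.901. Higher coverage in Tet2+/+ at all 9 shared sites therefore holds only with depth scaling alone. No paired analysis was possible because there is only 1 Tet2+/+ and 1 Tet2-/- sample. The depth behind a site is small: the shared summits rest on 20 to 48 Tet2+/+ fragments.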
